A study of Saccharomyces cerevisiae with 7 samples.

Results

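The core of the yeast mating pheromone pathway was followed through RNA levels in haploid cells that lacked a corepressor subunit. The genes were chosen by symbol: GPA1, STE4, STE18, STE5, FUS3, STE12, FAR1, SST2, KAR4 and AGA1, which are 10 of the 5449 budding yeast genes tested. All 10 were found, with 1 probe set each. RNA was taken from 2 samples lacking SSN6 (gene symbol CYC8), 2 samples lacking TUP1 and 3 wild-type samples, each hybridised to its own one-colour Affymetrix array. All 7 samples are of Saccharomyces cerevisiae strain BY4742, a haploid of the alpha mating type that carries auxotrophic deletions at HIS3, LEU2, LYS2 and URA3 in every group. Cultures of 200 mL were grown in YEP medium with 2% glucose and collected at an OD600 of 0.8, and the labels list no pheromone treatment. The sources used here give neither the way the deletions were made nor whether replicates were separate cultures, so the p-values rest on a spread that may be technical only.

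Haploid yeast cells of the a and alpha types signal to each other with peptide pheromones. A receptor for the partner's pheromone activates a heterotrimeric G protein, whose released beta-gamma dimer recruits a scaffold and a mitogen-activated protein kinase cascade that ends at the transcription factor Ste12. Ste12 raises genes for cell cycle arrest, adhesion and fusion, and also genes that dampen the signal. The receptors and pheromones differ between the mating types, while the core between them is shared by both. Ssn6 and Tup1 are subunits of a corepressor that DNA-binding proteins bring to promoters. In alpha cells it acts with the repressor alpha2 on genes meant for a cells, and in diploids with a1-alpha2 on haploid genes.

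The samples carried their labelled deletions. CYC8 read 5.62 and 6.07 (log2 level) in the ssn6 deletion, against 11.22 to 11.32 in wild type, and TUP1 read 4.69 and 5.07 in the tup1 deletion, against 11.56 to 12.50 in wild type. Median log2 levels over all genes tested ran from 10.95 to 11.06. Background was read from the fission yeast probe sets of each array, whose 95th percentile (the floor) ran from 5.50 to 5.67, and none of the 10 genes came closer to it than 2.38 log2 units on any array. Wild-type replicate 2 stood apart in an RNA quality control: its actin control probe set for the 3' end read 2.06 log2 units above that for the 5' end, against 0.30 to 0.61 on the other 6 arrays. The ribosomal RNA control probe sets also differed widely between arrays. Their mean log2 level was 10.97, 8.87 and 12.48 in wild type, 9.24 and 7.79 in ssn6, and 6.92 and 9.61 in tup1. The part of this difference in the levels of the 10 genes was not tested. Wild-type arrays differed from each other over these 10 genes with a standard deviation of 0.28 to 0.38, against 0.11 between the ssn6 arrays and 0.39 between the tup1 arrays. The number of arrays limits the precision of every value.

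Loss of Tup1 lowered 4 of the 10 genes. SST2, the attenuator of the G protein, fell 5.45-fold, AGA1, the anchor of a-agglutinin, 2.57-fold, the transcription factor gene STE12 2.10-fold, and the G-alpha gene GPA1 2.00-fold. None of the 10 rose past the threshold in that deletion. In the ssn6 deletion SST2 was the single call, 1.64-fold lower. The other 9 did not pass, with STE12 just short of the threshold (limma adjusted p = 0.0558). Between the deletions, SST2, FAR1 and AGA1 were higher in ssn6 than in tup1 cells, by 3.33-fold, 3.34-fold and 2.35-fold. All are calls by limma over 5449 genes at an adjusted p of 0.05 (Benjamini-Hochberg, two-sided).

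These counts stand beside the calls over all genes. The 10 genes were chosen with earlier results of these data known, so a share above that of all genes is a description and not a test. In the tup1 deletion 40% of the 10 genes were called, against 23.0% of all genes, and 4 were lower, against 12.6% of all genes lower. In the ssn6 deletion 10% were called, against 19.4% of all genes, and the 1 call was a fall, against 10.3% of all genes lower. Between the deletions 30% were called, all higher in ssn6, against 2.40% of all genes called and 1.91% called higher. The median log2 difference of the 10 genes from wild type was −0.60 in tup1, with −0.078 over all genes tested, and −0.24 in ssn6, with −0.14 over all genes. Between the deletions it was 0.41, with −0.066 over all genes. The 3 wild-type arrays serve both deletions, so the 2 comparisons with wild type are not independent of each other.

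**Figure D1:**
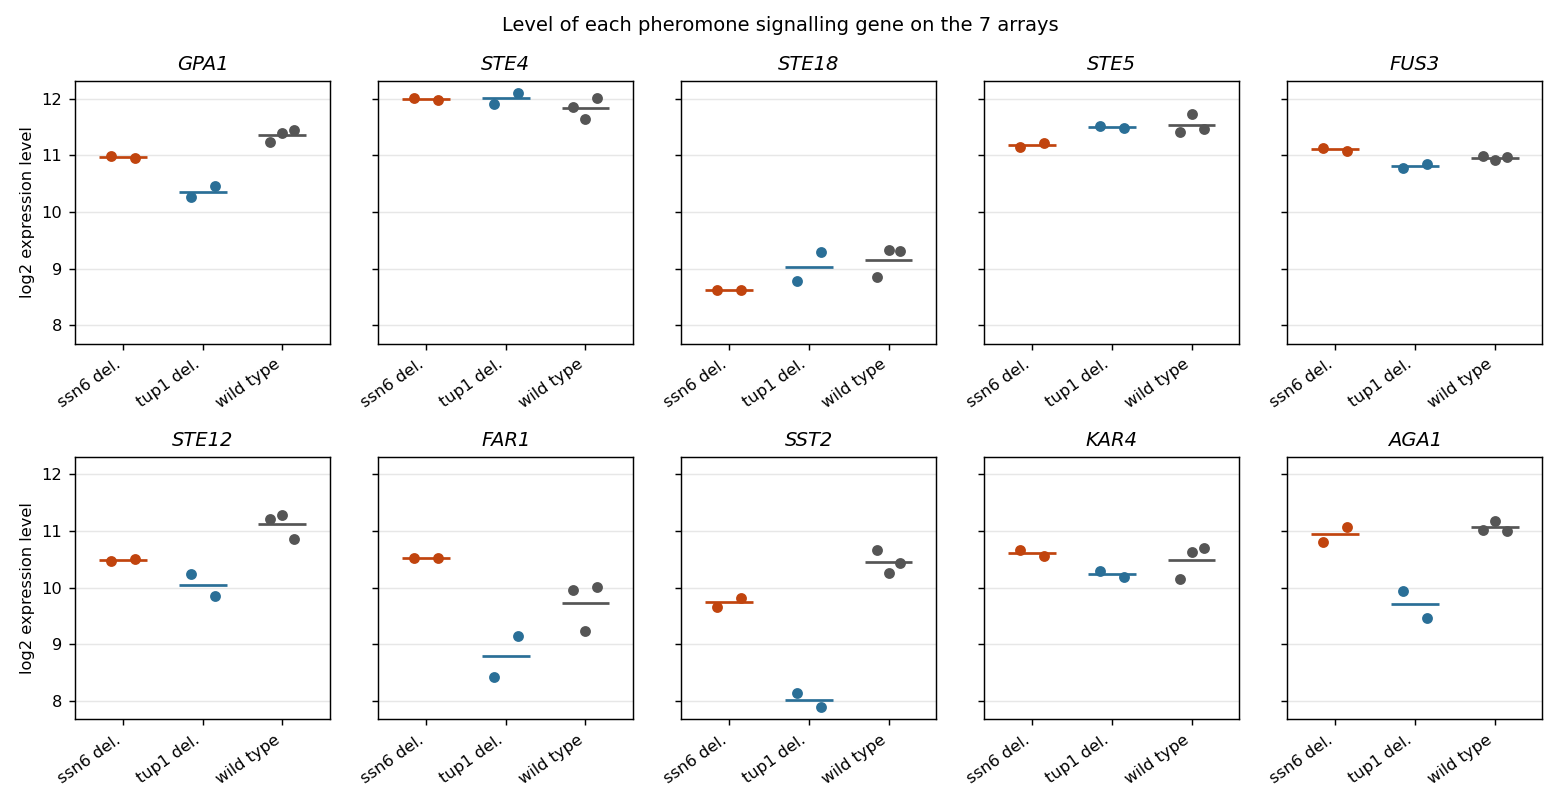
Log2 expression level (y axis) of each of the 10 genes on the 7 arrays, with the ssn6 deletion, the tup1 deletion and wild type from left to right; points are arrays and lines are group means. Both tup1 arrays of SST2 lie near 8, below every other array of that gene; levels of different genes come from different probe sets and are not to be compared.

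The G protein genes did not move together. GPA1 (YHR005C) encodes the alpha subunit, which holds the beta-gamma dimer inactive until a receptor is occupied. It read 10.99 and 10.95 in ssn6, 10.26 and 10.45 in tup1, and 11.23, 11.39 and 11.44 in wild type. The 3 genotypes do not overlap, with wild type highest and tup1 lowest. The fall in tup1 was −0.999 ± 0.14 on the log2 scale (SE, n = 2 against 3 arrays, limma adjusted p = 0.0032), and it passed in all 17 alternatives (adjusted p up to 0.029). In ssn6 the difference of −0.39 ± 0.14 did not pass (limma adjusted p = 0.0883). Of the 17 alternatives it passed only with array weights (0.0332).

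STE4 (YOR212W), for the beta subunit, read 12.01 and 11.98 in ssn6, 11.91 and 12.10 in tup1, and 11.85, 11.65 and 12.01 in wild type. The groups overlap in every comparison. Its difference from wild type was 0.16 ± 0.15 in ssn6, with a 95% interval of −0.20 to 0.52, and 0.17 ± 0.15 in tup1, with −0.19 to 0.53. STE18 (YJR086W), for the gamma subunit, read 8.62 and 8.62 in ssn6, 8.77 and 9.29 in tup1, and 8.85, 9.33 and 9.30 in wild type. The ssn6 arrays lie below all wild-type arrays, while the tup1 arrays straddle the lowest of them. Neither difference passed: −0.53 ± 0.21 in ssn6 (limma adjusted p = 0.121) and −0.13 ± 0.21 in tup1 (limma adjusted p = 0.696).

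Neither the scaffold gene nor the kinase gene gave a call. STE5 (YDR103W) encodes the scaffold that holds the kinases of the cascade. It read 11.14 and 11.22 in ssn6, 11.53 and 11.49 in tup1, and 11.42, 11.72 and 11.47 in wild type. The ssn6 arrays were the lowest, and the tup1 arrays lay among the wild-type ones. The difference was −0.35 ± 0.14 in ssn6 (limma adjusted p = 0.119) and −0.030 ± 0.14 in tup1 (limma adjusted p = 0.896). FUS3 (YBL016W) encodes the mitogen-activated protein kinase of the mating response. It read 11.13 and 11.07 in ssn6, 10.78 and 10.85 in tup1, and 10.99, 10.92 and 10.98 in wild type. The ssn6 arrays were above and the tup1 arrays below all wild-type arrays, by small amounts: 0.14 ± 0.12 in ssn6 and −0.14 ± 0.12 in tup1 (limma adjusted p = 0.425 and 0.41). The 95% intervals of these differences run from −0.14 to 0.42 in ssn6 and from −0.43 to 0.14 in tup1.

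STE12 (YHR084W), whose product binds pheromone response elements in the promoters of mating genes, was lower in both deletions, with a call in tup1. It read 10.47 and 10.51 in ssn6, 10.24 and 9.85 in tup1, and 11.21, 11.28 and 10.86 in wild type. All 4 deletion arrays lie below all 3 wild-type arrays. The fall in tup1 was −1.07 ± 0.19 (limma adjusted p = 0.00831), and it passed in all 17 alternatives. The difference in ssn6 was −0.63 ± 0.19 and just missed the threshold (limma adjusted p = 0.0558). It passed without wild-type replicate 3 (limma adjusted p = 0.0343) and without tup1 replicate 1 or 2 (0.0498 each), and missed it without any 1 of the other 4 arrays (up to 0.255). Between the deletions STE12 differed by 0.44 ± 0.20, which did not pass (limma adjusted p = 0.292). KAR4 (YCL055W), a factor that works with Ste12 on genes of nuclear fusion, read 10.67 and 10.56 in ssn6, 10.30 and 10.19 in tup1, and 10.15, 10.63 and 10.69 in wild type. Wild-type replicate 1 was the lowest of its 7 arrays, and no comparison passed (0.12 ± 0.19 in ssn6 and −0.25 ± 0.19 in tup1).

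FAR1 (YJL157C) encodes an inhibitor of the G1 cyclin kinase that also guides polarised growth in mating. It read 10.52 and 10.53 in ssn6, 8.42 and 9.15 in tup1, and 9.95, 9.24 and 10.01 in wild type. The genotypes do not overlap, with ssn6 highest and tup1 lowest. Against wild type neither difference passed: 0.79 ± 0.30 in ssn6 (limma adjusted p = 0.102) and −0.95 ± 0.30 in tup1 (limma adjusted p = 0.0583). Set directly against each other, the deletions differed by 1.74 ± 0.32 (limma adjusted p = 0.0461). The lowest wild-type value was that of replicate 2, the array that stood apart in the actin control; the part of RNA quality in it was not tested. Without that array the tup1 difference was −1.20 and passed (limma adjusted p = 0.0198). It also passed without tup1 replicate 2 (−1.32, limma adjusted p = 0.0407), whereas without tup1 replicate 1, the lower of that pair, it was −0.58 (limma adjusted p = 0.34).

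SST2 (YLR452C) had the largest change among the 10 genes in tup1 cells. Its product speeds GTP hydrolysis by Gpa1 and so desensitises the pathway, and the gene is a known target of Ste12. It read 9.66 and 9.83 in ssn6, 8.13 and 7.89 in tup1, and 10.67, 10.26 and 10.43 in wild type. The 3 genotypes are well apart, with wild type highest and tup1 lowest. In tup1 it fell by 2.45 ± 0.17 on the log2 scale (limma adjusted p = 0.000133), rank 91 by size among 5449 genes, and it passed in all 17 alternatives (adjusted p up to 0.00246). In ssn6 it fell by 0.71 ± 0.17 (limma adjusted p = 0.0269). Leaving out an array ended that call for wild-type replicate 1 (limma adjusted p = 0.0613) or 3 (0.0536) and for ssn6 replicate 1 (0.201) or 2 (0.141), and also with quantile normalization (0.0648), while the difference kept between −0.81 and −0.60.

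AGA1 (YNR044W) encodes the wall-anchored subunit of a-agglutinin, the adhesion protein of a cells, whose binding subunit is Aga2. Cells of both mating types make AGA1 RNA, and pheromone raises it. It read 10.81 and 11.07 in ssn6, 9.95 and 9.46 in tup1, and 11.02, 11.17 and 11.01 in wild type. The ssn6 arrays overlap with wild type and the tup1 arrays lie below all others. The fall in tup1 was −1.36 ± 0.18 (limma adjusted p = 0.00302) and passed in all 17 alternatives (adjusted p up to 0.0183). In ssn6 the difference was −0.13 ± 0.18, with a 95% interval of −0.55 to 0.30. AGA2, its partner and an a-cell gene, rose in both deletions, by 5.12 ± 0.19 in ssn6 and 4.13 ± 0.19 in tup1.

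**Figure D2:**
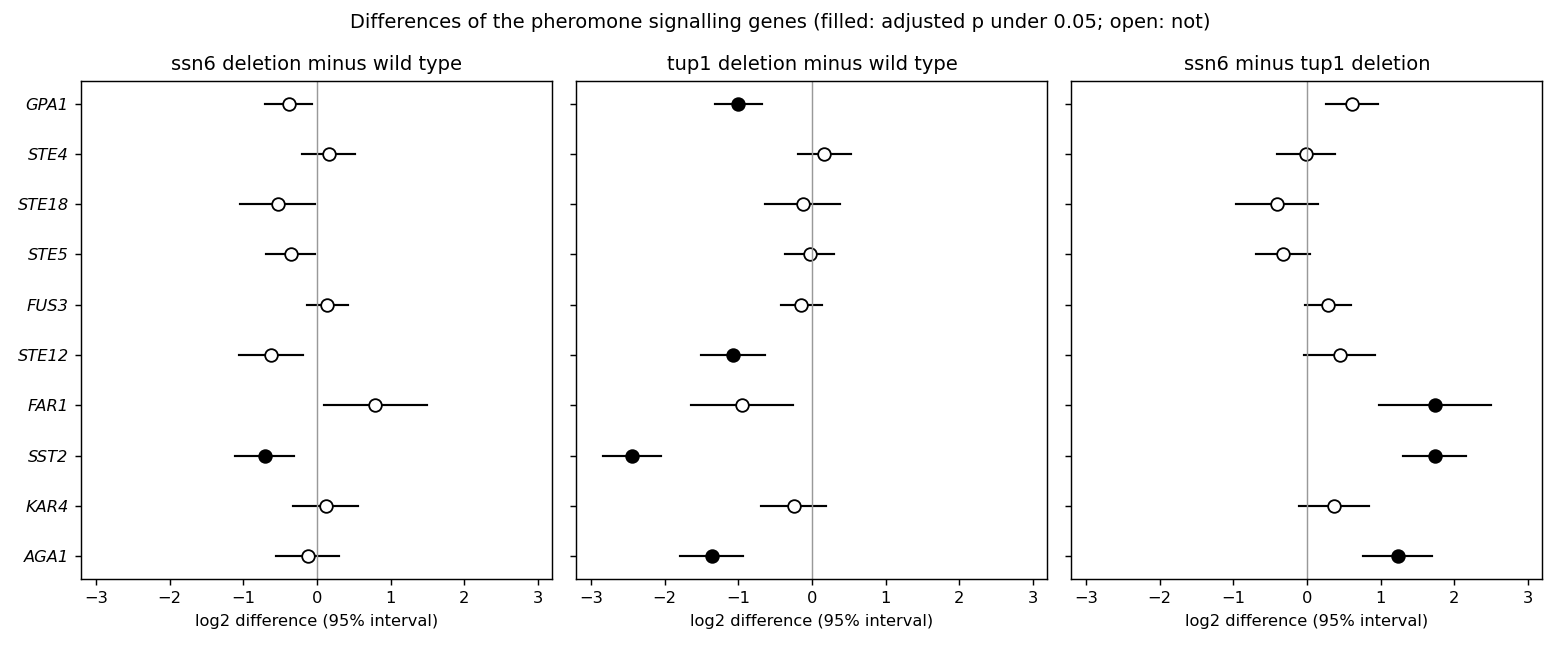
Log2 differences (x axis) of the 10 genes in the ssn6 deletion against wild type, the tup1 deletion against wild type and ssn6 against tup1; points are differences of group means, bars are 95% intervals of the limma fit, and filled points have an adjusted p under 0.05. Filled points are SST2 alone in the first panel, GPA1, STE12, SST2 and AGA1 in the second, and FAR1, SST2 and AGA1 in the third.

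The direct comparison of the deletions asks whether loss of either subunit left the pathway at the same level. For 3 genes it did not: SST2 was higher in ssn6 than in tup1 by 1.73 ± 0.18 (limma adjusted p = 0.0067), FAR1 by 1.74 ± 0.32 (0.0461) and AGA1 by 1.24 ± 0.20 (0.0296). These stood at ranks 40, 39 and 98 by size among 5449 genes. GPA1 was higher by 0.61 ± 0.15, which did not pass (limma adjusted p = 0.0853), and the 95% intervals of the other 6 include 0. For STE4 the interval was −0.40 to 0.39. In 9 of the 10 genes the arrays of the deletions did not overlap, against 63.6% of all genes, so separation of 2 arrays from 2 says little by itself. Against wild type the arrays did not overlap for 6 genes in tup1 (all lower, 52.0% of all genes in either direction) and for 7 in ssn6 (5 lower and 2 higher, 59.4% of all genes).

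The 3 calls differed in how often they were kept with 1 array left out. A lost call does not by itself show that it rested on the array left out. Each such fit also has fewer arrays for the shared spread. The ssn6 arrays of FAR1 read 10.52 and 10.53, nearly the same, yet its call was lost without either. SST2 missed the threshold without ssn6 replicate 1 (limma adjusted p = 0.067) or 2 (0.112) and passed without any 1 of the other 5 arrays. FAR1 missed it when wild-type replicate 1 (0.0747) or 3 (0.0613) was left out, or ssn6 replicate 1 (0.262) or 2 (0.31), or tup1 replicate 1 (0.248). AGA1 missed it when wild-type replicate 1 (0.0606) was left out, or ssn6 replicate 1 (0.172) or 2 (0.309), or tup1 replicate 1 (0.053) or 2 (0.0531). FAR1 also missed it after median centring (0.0501) and with only the genotypes compared (0.0535), as did AGA1 in that last case (0.0598). The sizes kept their sign with 1 array left out, with 1.61 to 1.86 for SST2, 1.37 to 2.11 for FAR1 and 0.99 to 1.48 for AGA1. Over all genes the calls fell to 13 without ssn6 replicate 1 and 5 without replicate 2, against 131 with all arrays.

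**Figure D3:**
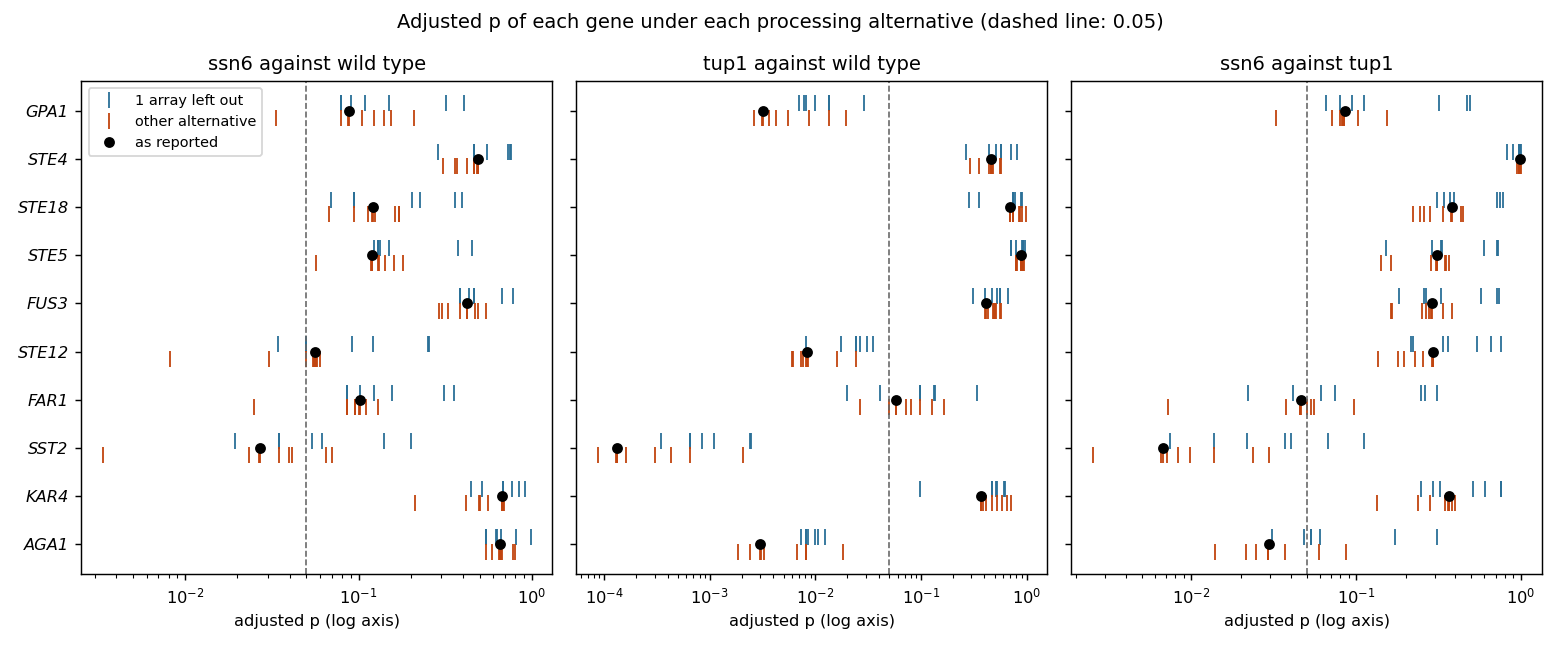
Adjusted p (x axis, log scale, a separate range in each panel) of each gene with all arrays (black points), with 1 array left out (blue ticks) and under the other alternatives (orange ticks), for the 3 comparisons; the dashed line is 0.05. In the tup1 panel every tick of GPA1, STE12, SST2 and AGA1 lies left of the line. The other calls, SST2 in the ssn6 panel and SST2, FAR1 and AGA1 in the third panel, have ticks on both sides.

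Patterns over the 7 arrays are described here by Pearson's r, with no test, since the arrays are only 3 genotypes and r over them largely restates the group means. GPA1, STE12, SST2 and AGA1 had r between 0.85 and 0.95 with each other. FUS3 and FAR1 had r = 0.97, both highest in ssn6 and lowest in tup1, although FUS3 moved far less. STE18 and STE5, lowest in ssn6, had r = 0.77. STE4 had r = −0.77 with STE12, though its groups overlap in every comparison. STE5 had r = −0.76 with FUS3 and with FAR1.

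Among 2809 other genes with a standard deviation of at least 0.3 over the arrays, those most like AGA1 included SAG1 (r = 0.98), which encodes alpha-agglutinin, the partner adhesin of alpha cells, and the other 2 were GRC3 and YCL021W-A (r = 0.97 each). SAG1 differed from wild type by −0.38 in ssn6 and −2.66 in tup1. Those most like SST2 were PMU1, ARG4 and HMS2 (r = 0.99 each), with differences of −0.38, −0.36 and −0.72 in ssn6 and of −1.19, −1.20 and −2.02 in tup1. FAR1 was most like PRY2 (r = 0.98), TOS6 and YPS3 (r = 0.96 each), which were higher in ssn6 (0.51, 0.65 and 0.69) and lower in tup1 (−0.47 each) than in wild type by value. GPA1 was most like PGA3, THI80 and RBG1 (r = 0.99 each), and STE12 most like CDC12, CIT2 and TRM44 (r = 0.99, 0.99 and 0.98).

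Calls among the other genes of the pathway are to be read against the share of all genes called, which was 9.18% higher and 10.3% lower in ssn6 and 10.4% higher and 12.6% lower in tup1. Of 9 genes for the kinase cascade and cell polarity, 2 passed in tup1, both lower, and 0 in ssn6, where 19.4% of all genes were called. STE20, the kinase that starts the cascade, fell in tup1 by 0.76 ± 0.14 (limma adjusted p = 0.0114), and KSS1, a kinase close to Fus3, by 0.99 ± 0.24 (0.0252). KSS1 passed without wild-type replicate 2 and in no other case with 1 array left out (adjusted p up to 0.112), and STE20 missed the threshold without tup1 replicate 1 (0.0767). The median of this list was −0.17 in tup1 and −0.29 in ssn6, with −0.078 and −0.14 over all genes. In ssn6 all 9 values were negative, as were those of 3464 of the 5449 genes tested. Without wild-type replicate 2, 2 of the 9 fell in ssn6. STE11 and STE7, the middle kinases, did not pass in either deletion (adjusted p of 0.268 or more).

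Of 8 partners of Ste12 and attenuators of the pathway, 1 rose and 2 fell in ssn6, with 19.4% of all genes called, and 0 passed in tup1, with 23.0%. MSG5, a phosphatase that acts on Fus3, rose by 0.63 ± 0.14 (limma adjusted p = 0.023). MCM1, a transcription factor that works with alpha1 and alpha2 as well as Ste12, fell by 0.69 ± 0.16 (0.025), and DIG2, which holds Ste12 inactive, by 0.60 ± 0.17 (0.0478). None of the 3 passed without ssn6 replicate 1 (adjusted p of 0.198 to 0.227), without ssn6 replicate 2 (0.128 to 0.265) or without wild-type replicate 1 (0.0536 to 0.106). MCM1 and DIG2 also missed it without wild-type replicate 3 (0.0543 and 0.0577), and DIG2 without wild-type replicate 2 (0.0604). In tup1 the median of the list was −0.15, and without wild-type replicate 2 it had 1 rise and 1 fall, without replicate 3 just 1 fall.

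Of 7 other haploid genes that a1-alpha2 represses in diploids, 3 rose in ssn6 and 1 in tup1, against 9.18% and 10.4% of all genes higher, and 0 fell in either. Their median was 0.30 in ssn6, where all 7 values were positive, and −0.090 in tup1, where 3 were. Of the 5449 genes tested, 1985 had positive values in ssn6 and 2360 in tup1. RME1, a repressor of meiosis, rose by 1.13 ± 0.30 in ssn6 (limma adjusted p = 0.0395) and by 1.24 ± 0.30 in tup1 (0.0263). AXL1, a protease gene for a-factor processing and bud site choice, rose in ssn6 by 0.63 ± 0.12 (0.0136), and AMN1, for a daughter cell regulator of mitotic exit, by 0.54 ± 0.13 (0.032). None of the 3 genes passed in ssn6 without ssn6 replicate 1 (adjusted p of 0.138 to 0.187) or 2 (0.14 to 0.254), and RME1 also missed it there without wild-type replicate 1 (0.0701) or either tup1 array (0.0582), and AMN1 without wild-type replicate 3 (0.0632). In tup1 RME1 missed it when wild-type replicate 1 (0.0556) was left out, or either ssn6 array (0.0509) or tup1 replicate 1 (0.181) or 2 (0.0542).

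Enzymes that modify or mature pheromones and Ste18 showed 1 fall among 9 in each deletion, near the 10.3% and 12.6% of all genes lower in ssn6 and tup1. STE13, a peptidase that trims alpha-factor, fell in ssn6 by 0.77 ± 0.13 (limma adjusted p = 0.00926), a call missed without ssn6 replicate 1 (0.105) or 2 (0.103). RAM1, the beta subunit of the farnesyltransferase that acts on a-factor and Ste18, fell in tup1 by 0.68 ± 0.14 (0.0164), and missed it without tup1 replicate 2 (0.0566). Of 7 G1 cyclin and Start genes, 2 rose in ssn6, against 9.18% of all genes, and 1 fell in tup1, against 12.6%. CLN1 rose in ssn6 by 1.12 ± 0.20 (0.011) and SWI4, an activator of G1 cyclin genes, by 1.07 ± 0.27 (0.0356). CLN1 missed the threshold without ssn6 replicate 1 (0.0631) or 2 (0.116), and SWI4 without either ssn6 array or any 1 wild-type array (0.067 to 0.19).

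CLN2, a G1 cyclin whose kinase Far1 inhibits, read 10.73 and 10.93 in ssn6, 9.25 and 9.30 in tup1, and 10.34, 10.65 and 10.20 in wild type. Both tup1 arrays lay below all others, as they did for FAR1. It fell in tup1 by 1.12 ± 0.17 (limma adjusted p = 0.00471) and was higher in ssn6 than in tup1 by 1.55 ± 0.18 (0.0113). The fall passed without any 1 array (adjusted p up to 0.044), and the difference between deletions missed the threshold without ssn6 replicate 1 (0.0857) or 2 (0.145) or tup1 replicate 1 (0.0918). FAR1 RNA also varies with the cell cycle, and the share of cells in G1 was not measured here. In RNA of whole cultures, fewer cells expressing a gene and less RNA per cell cannot be told apart.

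Of 15 pheromone-induced fusion genes, 3 rose and 1 fell in ssn6, 2 fell in tup1, and 4 were higher in ssn6 than in tup1. Of all genes, 19.4% were called in ssn6, 12.6% were lower in tup1 and 1.91% were higher in ssn6 than in tup1, so the count in tup1 is near its share. FUS1, a membrane protein gene of cell fusion and a standard reporter of Ste12, read 10.32 and 10.26 in ssn6, 8.67 and 8.64 in tup1, and 10.78, 11.41 and 10.70 in wild type, the same order of genotypes as for SST2. It fell in tup1 by 2.31 ± 0.22 (limma adjusted p = 0.000611, up to 0.0134 with 1 array left out), and in ssn6 its −0.67 ± 0.22 did not pass (0.073). PRM1, also of cell fusion, rose in ssn6 by 1.40 ± 0.25 (0.0106) and fell in tup1 by 0.86 ± 0.25 (0.0479), calls that were missed without either ssn6 array in ssn6 (up to 0.0876) and without either array of tup1 or of ssn6 or wild-type replicate 1 or 2 in tup1 (up to 0.197). PRM8 fell in ssn6 by 0.85 ± 0.15 (0.0102), missed without ssn6 replicate 1 (0.121) or 2 (0.0602). Without either ssn6 array none of the 15 was called in ssn6. Leaving out other arrays gave up to 4 rises and 3 falls in ssn6 (wild-type replicate 3) and 1 to 3 falls in tup1, and between the deletions 0 genes were called without either ssn6 array or tup1 replicate 1 and 1 without tup1 replicate 2.

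Mating-type markers changed in both deletions. All 7 a-cell genes rose in both deletions, with 9.18% of all genes higher in ssn6 and 10.4% in tup1. Their mean log2 levels were 11.53 and 11.50 in ssn6 and 10.40 and 10.44 in tup1, against 7.74 to 8.09 in wild type. Among them STE2, the receptor for alpha-factor, rose by 4.05 ± 0.18 in ssn6 and 2.67 ± 0.18 in tup1. Of 5 alpha-cell genes, 2 fell in ssn6 and 5 in tup1, with 10.3% and 12.6% of all genes lower. The mean of these 5 genes was 11.58 and 11.63 in ssn6 and 9.34 and 9.64 in tup1, against 12.26 to 12.60 in wild type. No marker of either type was under the floor on any array, and the part of the receptor and pheromone genes in the levels of SST2, FAR1, AGA1, STE12 and GPA1 was not tested. The count of 7 a-cell genes was 6 in ssn6 without either ssn6 array and 5 to 6 in tup1 without a tup1 or ssn6 array. That of alpha-cell genes in ssn6 was 1 when either ssn6 array or wild-type replicate 1 or 3 was left out and 3 without wild-type replicate 2, and in tup1 it was 4 without wild-type replicate 1 or any 1 deletion array.

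**Figure D4:**
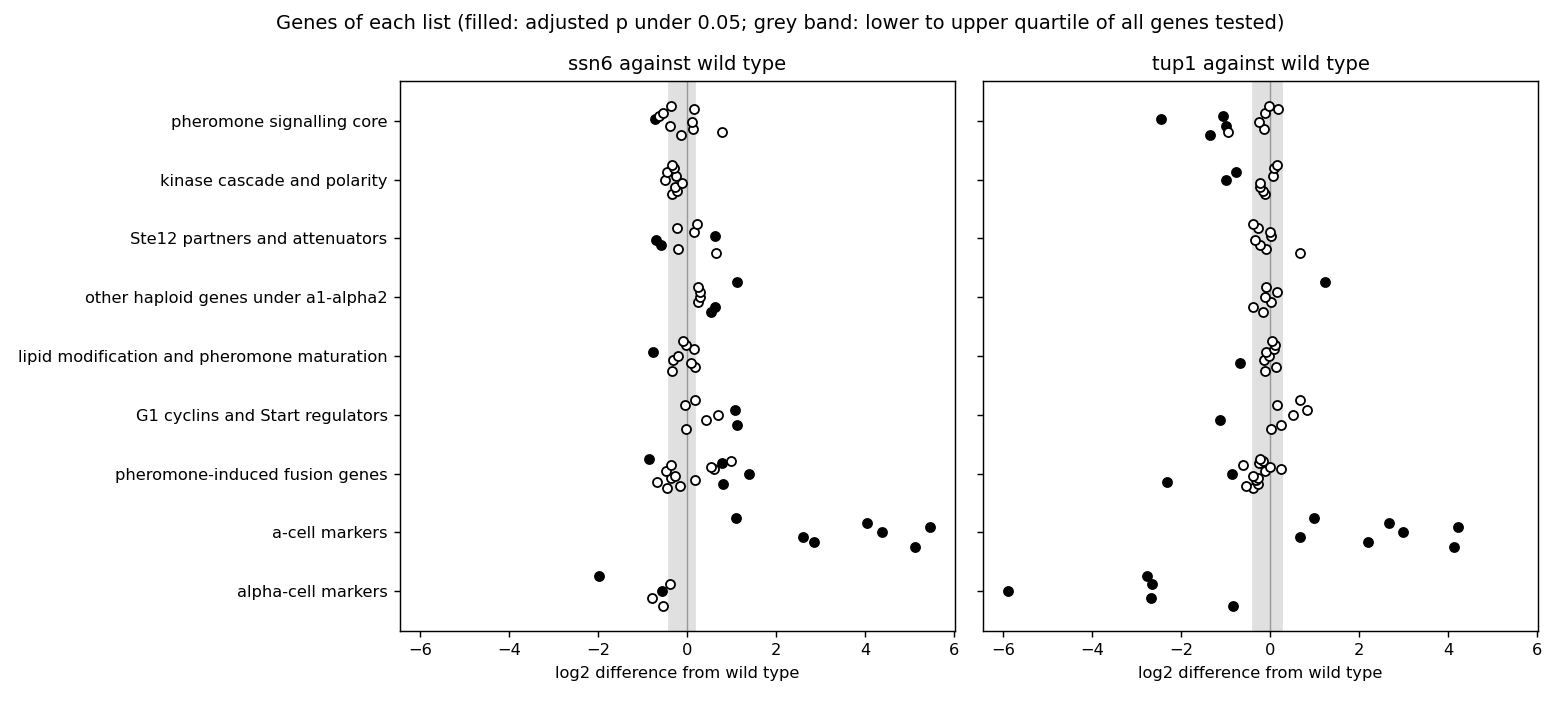
Log2 differences from wild type (x axis) of the genes of 9 lists (rows) in the ssn6 deletion (left) and the tup1 deletion (right); each point is a gene, filled where its adjusted p is under 0.05, and the grey band runs from the lower to the upper quartile of all genes tested. The points furthest to the right in both panels are genes of a cells. Those furthest to the left in the tup1 panel are genes of alpha cells. Some genes of both lists lie among the points of other lists. The core has 1 filled point in ssn6 and 4 in tup1, all left of 0.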

How the data were processed

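The deposited values are log2 expression levels per probe set, which the authors normalized between arrays; per the submitters' processing notes the tools were RMA and limma, with no version or role given. RMA values carry no detection call, and such log2 values understate the change of dim genes. Of 10928 probe sets, 5498 have 1 budding yeast gene, named through the platform annotation and a table of assembly R64; a single one has several genes, 1746 are for fission yeast, and 3683 are unnamed there. For 47 genes with several probe sets the brightest was used. The 3 genotype means were fitted in a single limma model over the 7 arrays (limma 3.58.1, R 4.3.3), whose moderated variance had 4 residual and 3.19 prior degrees of freedom, with Benjamini-Hochberg adjustment over 5449 genes. Errors are moderated standard errors. Members and lists were chosen with earlier results of these data known. Named genes are all members, up to 3 called genes per list with the largest change from wild type, and the 3 genes most like each called member; CYC8 and TUP1, and AGA2, STE2, STE7, STE11 and SAG1 as partners, are given for context. On 10 simulated tables of 5449 genes with 200 changed, log2 changes of 1 were recovered in 55.5% for ssn6 against wild type. They were recovered in 53.3% for tup1 against wild type and 44.4% between the deletions. Changes of 2 were recovered in 93.8%, 94.6% and 91.4%, and changes of 0.5 in 2.77%, 2.64% and 1.38%. Far more genes were called against wild type in the real data, 1059 in ssn6 and 1255 in tup1, which loosens the cut on p. The simulated rates against wild type therefore do not give how often a change of a given size is called here. AMN1, for example, passed in ssn6 at 0.54. The simulated arrays of a gene also shared the same spread in all genotypes. In the real data replicate arrays differed over all genes with a standard deviation of 0.20 in ssn6, 0.41 in tup1 and 0.37 to 0.50 in wild type. The rates between the deletions therefore hold only for equal spreads. Plots used matplotlib 3.10.9 under Python 3.11.15.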

Additional observations from a re-analysis of the deposited data

Results flagged for a closer look

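The effects of the 2 deletions differed by the direct test for 3 genes, where the difference itself passed an adjusted p of 0.05 in limma. FAR1 was 1.74 log2 units higher in ssn6 than in tup1 cells, with both ssn6 arrays above and both tup1 arrays below all wild-type arrays. SST2 was 1.73 higher and AGA1 1.24 higher in ssn6 than in tup1. Which calls were kept with 1 array left out is given with the comparison of the deletions.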

How the results depend on the processing

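The 4 falls in tup1 kept their call in all 17 alternatives. Of these, averaging probe sets and filtering at the floor leave the values of the 10 genes unchanged, so they could hardly alter a call. With 1 wild-type array left out, 4 to 5 of the 10 genes were called. The single call in ssn6 varied: 0 genes passed after quantile normalization, with a replicate block or at an adjusted p of 0.01, 2 with only the genotypes compared or with the block crossed, 4 with array weights, and 0 to 2 with 1 array left out. Between the deletions 1 of the 3 calls was left with only the genotypes compared, with the replicate block (FAR1 0.0971 and AGA1 0.0871 missed it) or at 0.01, 2 with the crossed block, where FAR1 missed it (0.0557), and 0 to 3 with 1 array left out. The replicate number joins arrays by name alone. Deviations of same-numbered arrays from their group means had r = −0.27 for ssn6 and tup1. This is 1 value for both numbers, since 2 arrays deviate from their mean by equal and opposite amounts. For numbers 1 and 2, r was −0.36 and −0.27 for ssn6 and wild type, and 0.28 and 0.18 for tup1 and wild type. The crossed block, chosen after seeing the data, called 1199, 1298 and 173 genes in ssn6, in tup1 and between the deletions.

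Over all genes, 1059 were called in ssn6, 2139 with array weights, 397 at 0.01 and 279 to 1196 with 1 array left out. In tup1 1255 were called, 767 with only the genotypes compared, 456 at 0.01 and 427 to 1366 with 1 array left out. Between the deletions 131 were called, 412 with array weights, 58 with the replicate block, 25 at 0.01 and 5 to 257 with 1 array left out. With array weights the 10 genes had 1 rise and 3 falls in ssn6, to be read beside 2139 calls among 5449 genes. That setting gave each ssn6 array a weight of 3.65, against 0.29 to 1.24 for wild-type arrays and 0.61 for tup1 arrays. Differences that turned sign were all uncalled and near 0. In ssn6 they were KAR4 without wild-type replicate 1 (−0.048, and up to 0.22 with another array left out) and AGA1 without ssn6 replicate 1 (0.0075, and down to −0.26). In tup1 they were STE5 with array weights (0.032) and without wild-type replicate 2 (0.062, and down to −0.089 without another array), and STE18 without tup1 replicate 1 (0.13, and down to −0.38). Between the deletions STE4 turned with quantile normalization (0.00062), with median centring (0.029), without ssn6 replicate 2 (0.0060) and without tup1 replicate 2 (0.089, and down to −0.10 without another array). The cause was not tested. Where 1 array of a deletion was left out, the fit takes the spread of the remaining array from the other groups.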
